A study of Rattus norvegicus with 6 samples.

Results

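Neurotrophins, ligands of the GDNF family and their receptors were examined in rat sciatic nerve after crush. The 9 genes described are every row of the deposited expression table named Bdnf, Ntf3, Gdnf, Artn, Ngfr, Ntrk2, Ntrk3, Gfra1 or Ret, out of 30957 genes, and each name has 1 row. RNA-seq libraries came from 3 sciatic nerves that had been crushed and 3 left intact on the opposite side, from Sprague Dawley rats. According to the methods the animals were adult males, and the proximal stump was taken 4 days after injury. No time point is given in the labels, and no sham-operated rats were analysed here. The design text places the lesion on the right, whereas the methods describe a right incision and a crush of the left nerve. The methods also describe RNase R, an enzyme that digests linear RNA, which the labels do not name.

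Neurotrophins are secreted growth factors that keep neurons alive and guide their axons. Each binds a receptor kinase of the Trk family and, with lower selectivity, the shared receptor p75NTR. Ligands of the GDNF family bind a GFRα coreceptor on the cell surface, and the pair then engages the receptor kinase RET. After nerve injury, Schwann cells are known as a source of several of these ligands, while sensory and motor neurons carry most of the kinases.

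The labelled tissue was checked against its markers before the results. The libraries held between 24844371 and 27139360 counts. The Schwann cell genes Mag and Cdh19 had 0 counts in all 6 libraries, and Sox10, Mbp and S100b had between 0 and 3. Of the 11 Schwann cell markers 6 passed the expression filter, and the summed level of all 11 was 70.5 to 74.8 normalized CPM (that is, read counts scaled to a common library size after TMM normalization) on the intact and 66.4 to 67.4 on the crushed side. The macrophage genes Ptprc, Adgre1, Cd163, C1qa and C1qb were at 0 in every library, and the fibroblast genes Col1a2, Dcn and Lum likewise. Other markers of these cells were counted, with 29 to 52 counts of Cd68 and 18 to 29 of Csf1r for macrophages, and 1114 to 1525 counts of Pdgfra and 293 to 537 of Col1a1 for fibroblasts. The proliferation gene Mki67 had between 37037 and 43837 counts over the 6 libraries, and 97.2% of genes with a count had a lower mean FPKM. Mag, Cdh19, Sox10, Mbp and S100b thus had at most 3 counts in the libraries labelled crushed and intact alike, and the values below describe the libraries under those labels.

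The upstream sequences of one signalling complex, the ligand Gdnf with its coreceptor Gfra1 and its kinase Ret, are shown because the ligand was well above the detection floor while both receptor genes had at most 3 counts in any library. They are the 250 bases before the annotated start in RefSeq (GRCr8 assembly), where 6 of the 9 genes matched an entry. Bases in capitals mark the motif TATAAA, the core of the TATA box.
Gdnf, chr2:58621077-58621326, plus strand: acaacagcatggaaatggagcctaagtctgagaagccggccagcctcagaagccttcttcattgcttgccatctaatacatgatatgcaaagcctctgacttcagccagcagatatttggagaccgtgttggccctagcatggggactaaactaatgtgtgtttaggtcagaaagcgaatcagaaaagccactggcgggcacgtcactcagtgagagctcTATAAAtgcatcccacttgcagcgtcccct
Gfra1, chr1:267555812-267556061, minus strand: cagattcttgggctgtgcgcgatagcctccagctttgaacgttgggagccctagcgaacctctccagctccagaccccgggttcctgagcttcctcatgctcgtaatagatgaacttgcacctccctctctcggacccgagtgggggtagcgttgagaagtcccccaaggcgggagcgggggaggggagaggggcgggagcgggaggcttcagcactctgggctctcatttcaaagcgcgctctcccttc
Ret, chr4:153040557-153040806, minus strand: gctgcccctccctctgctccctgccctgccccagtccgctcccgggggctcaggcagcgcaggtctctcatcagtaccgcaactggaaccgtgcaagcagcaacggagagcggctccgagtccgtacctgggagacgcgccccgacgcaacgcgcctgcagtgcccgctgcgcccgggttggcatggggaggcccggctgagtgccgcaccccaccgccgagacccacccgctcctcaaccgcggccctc
The TATAAA of Gdnf begins 30 bases before the start, and TATAAA was found on either strand in 12.9% of the 33469 upstream windows in the same table. Neither Gfra1 nor Ret held it. The windows of Gdnf, Gfra1 and Ret had a GC content of 49.6%, 62.0% and 72.8%, against a median of 51.2% over all windows. The AP-1 motif TGACTCA, the CRE TGACGTCA, an NF-κB motif of 10 bases and the E-box CACGTG were searched on both strands as well, and none of these letters stood in the 3 windows. Their shares among all windows were 4.05%, 1.59%, 0.0956% and 5.59%.

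Bdnf and Gdnf were counted well above the 5 receptors, whereas Ntf3 was at 0. Artn overlapped with Ngfr in counts on the intact side and lay above it on the crushed side. Only Bdnf and Gdnf passed edgeR's expression filter, Artn was counted at low level, and the other 6 genes had at most 5 counts in any library. Ntf3, which encodes neurotrophin 3, and Ntrk2, which encodes the BDNF receptor TrkB, had 0 counts in all 6 libraries. A count of 0 allows a level of up to 3 counts, which is 0.110 to 0.121 normalized CPM in these libraries and covers counting error only. In bulk RNA, fewer cells of a type and less RNA per cell cannot be told apart.

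**Figure D1:**
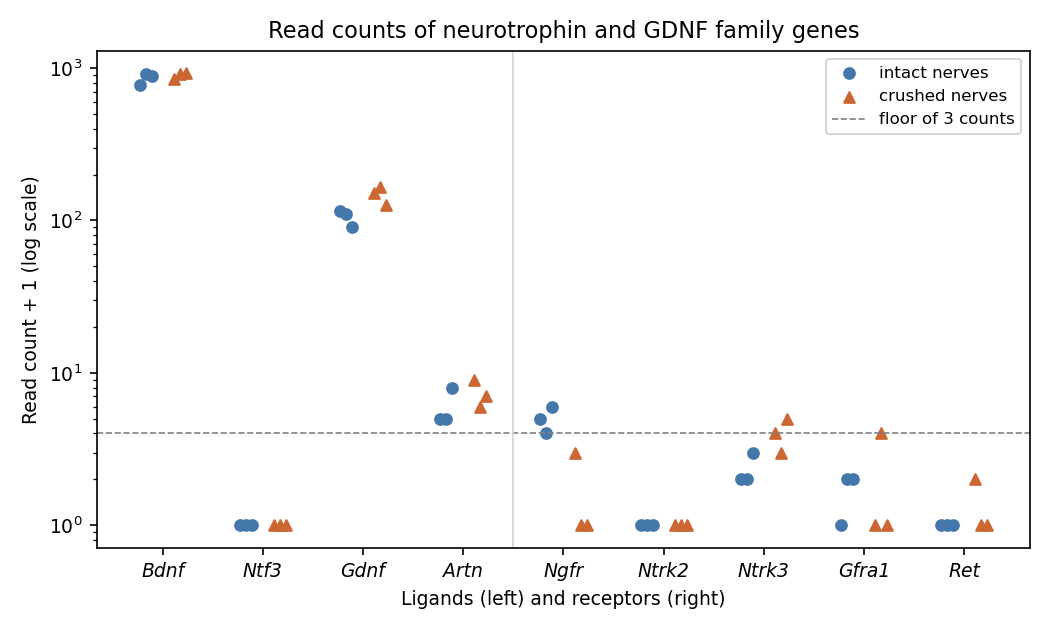
Read counts of the 9 genes in 3 intact nerves (circles) and 3 crushed nerves (triangles), with 1 added for the log axis and a dashed line at the floor of 3 counts. Bdnf lies between 776 and 923 counts and Gdnf between 90 and 165, whereas the receptors lie at or near 0.

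Neither Bdnf nor Gdnf, the 2 of the 9 genes tested, differed between crushed and intact nerves at an adjusted p under 0.05 (quasi-likelihood test of edgeR, p-values adjusted by Benjamini-Hochberg over 12393 genes). Across all genes tested the share past that threshold was 3.12%, or 387 genes, with 182 (1.47%) higher and 205 (1.65%) lower after crush. With limma on log2(FPKM + 0.1) the split became 156 up and 86 down. Of the 2 genes, Gdnf had an unadjusted p under 0.05, as did 16.2% of all genes tested. DESeq2 called 0 of the 2, and 512 genes in all. With edgeR's exact test 1 of the 2 was called, and 626 genes in all. Neither Bdnf nor Gdnf met the limits of the methods, more than 1 log2 unit in size with a p under 0.001, which 0.282% of the genes tested met.

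Gdnf (ENSRNOG00000012819) encodes glial cell line-derived neurotrophic factor, a survival factor for motor neurons, and lies on chromosome 2 from 56887987 to 56910238 in the table's coordinates. Gdnf had 114, 109 and 90 counts in intact libraries 1, 2 and 3, and 151, 165 and 126 counts in crushed libraries 1, 2 and 3. Each crushed nerve thus exceeded each intact one, as 10.8% of the genes tested did in that direction and 23.0% in either direction. The mean level was 4.09 ± 0.438 normalized CPM (SD, n = 3) on the intact side and 5.55 ± 0.524 normalized CPM (SD, n = 3) on the crushed side. Its log2 ratio, crushed over intact from the fit, was 0.44 (standard error 0.131, 95% interval 0.15 to 0.73, unadjusted p = 0.00656, adjusted p = 0.113, edgeR quasi-likelihood), or 1.36-fold. The adjusted p was 0.0439 with edgeR's exact test and between 0.0814 and 0.359 under the other alternatives. With 3 nerves against 3, an exact permutation test (two-sided) cannot give a p under 0.1, and none was run.

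Bdnf (ENSRNOG00000047466) encodes brain-derived neurotrophic factor, the ligand of TrkB, and lies on chromosome 3 from 100768637 to 100819210. It was the most counted of the 9 genes. Bdnf had 776, 919 and 885 counts in intact libraries 1, 2 and 3, and 853, 908 and 923 counts in crushed libraries 1, 2 and 3. The groups overlapped, at 33.7 ± 2.70 normalized CPM (SD, n = 3) in intact and 33.8 ± 2.82 normalized CPM (SD, n = 3) on the crushed side. The log2 ratio was 0.0033 (standard error 0.0796, adjusted p = 0.988, edgeR quasi-likelihood), with a 95% interval of -0.17 to 0.18, so that a change beyond 1.13-fold in either direction lay outside the interval. The counts are per gene and do not tell apart the transcripts that begin at the 6 Bdnf starts in RefSeq.

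**Figure D2:**
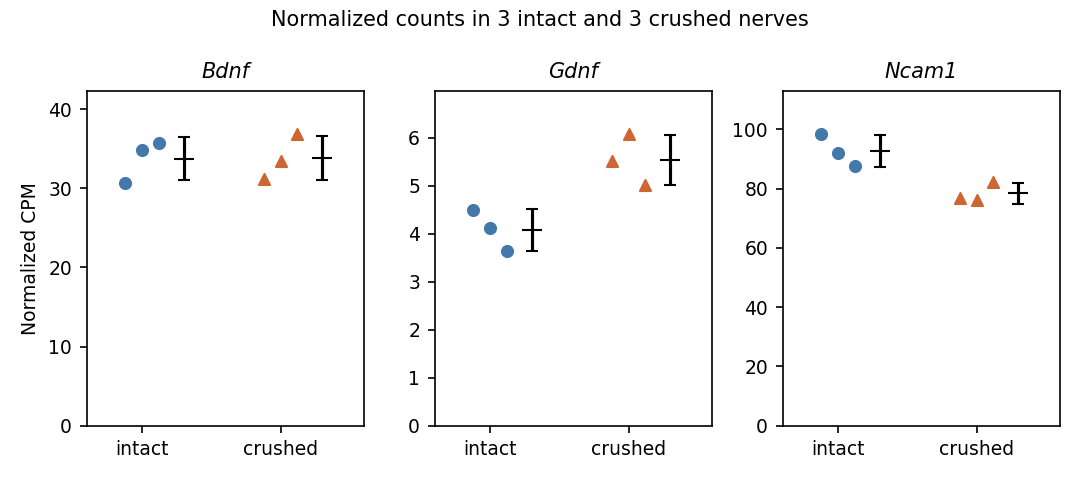
Normalized CPM of Bdnf, Gdnf and Ncam1 in each of 3 intact and 3 crushed nerves, with black bars for the mean and SD of each group. The groups overlap for Bdnf, the crushed nerves lie above the intact nerves for Gdnf and below them for Ncam1.

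Artn (ENSRNOG00000019842) encodes artemin, a GDNF family ligand of sensory and sympathetic neurons, on chromosome 5 from 136759717 to 136762986. Artn had 4, 4 and 7 counts on the intact side and 8, 5 and 6 on the crushed side, in the order of libraries 1, 2 and 3. The groups overlapped. In the fit without the filter the log2 ratio was 0.28 (standard error 0.519, adjusted p = 0.852, edgeR quasi-likelihood). The ratio of summed counts, crushed to intact, was 1.22 with a counting interval of 0.587 to 2.58 (exact Clopper-Pearson on the split of counts). Such an interval covers counting error in the summed reads and leaves out the spread between nerves.

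Levels of different genes were compared per kilobase, on the FPKM scale. In intact nerves Gdnf had 5.80 ± 0.601 FPKM and Bdnf 5.39 ± 0.449 FPKM (SD, n = 3), and the 3 values of each gene overlapped. In crushed nerves Gdnf had between 7.23 and 8.72 FPKM, and Bdnf between 5.05 and 5.95 FPKM, without overlap. Counts gave the opposite order of these ligands, since the length behind the FPKM was 700 bases for Gdnf and 6224 for Bdnf. Of all genes with a count, 53.0% had a lower mean FPKM than Gdnf and 49.6% a lower one than Bdnf, which places both ligands near the middle. Artn followed at 0.147 ± 0.0556 FPKM on the intact side, below both, and 24.1% of genes had a lower mean FPKM.

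**Figure D3:**
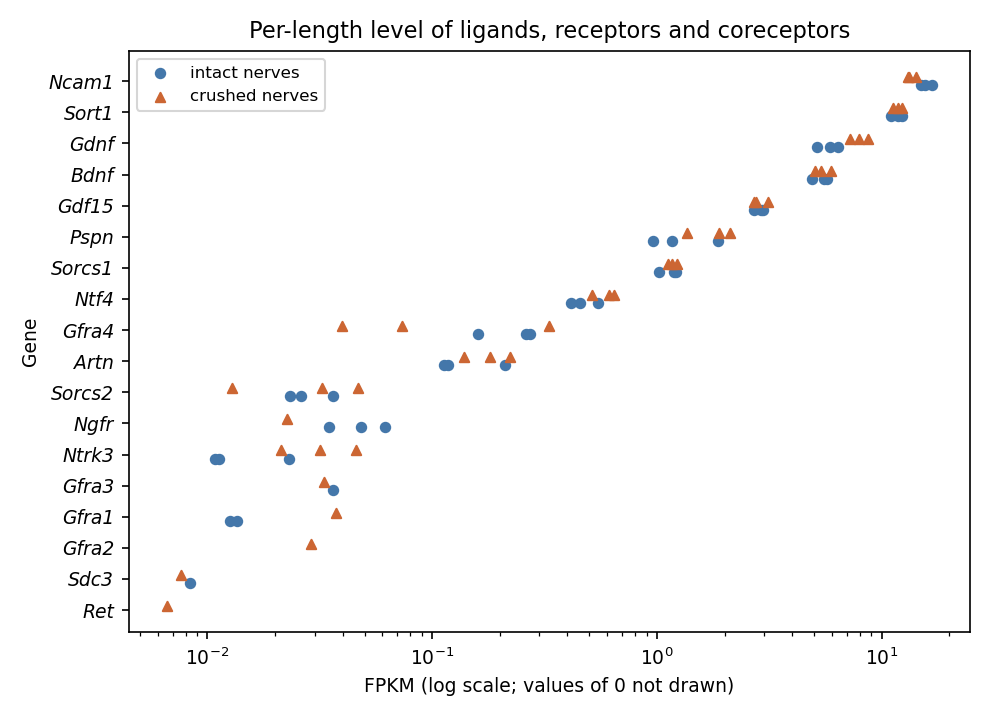
FPKM on a log axis of the ligands, receptors and coreceptors with at least 1 count, in intact (circles) and crushed nerves (triangles), ordered by mean level, with values of 0 not drawn. Ncam1 and Sort1 lie highest, followed by Gdnf and Bdnf, and Ret lies lowest.

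Ngfr (ENSRNOG00000005392) encodes p75NTR, the shared neurotrophin receptor and a known surface marker of immature and denervated Schwann cells. It lies on chromosome 10 from 83389847 to 83408061. Ngfr had 4, 3 and 5 counts on the intact side and 2, 0 and 0 counts on the crushed side, in the order of libraries 1, 2 and 3. The crushed nerves were all below the intact nerves, as in 12.2% of the genes that passed the filter. Ngfr was at 0 in 2 of the 3 crushed nerves. The ratio of summed counts was 0.160, with a counting interval of 0.0174 to 0.720 that leaves out the spread between nerves. In the fit without the filter the adjusted p was 0.330 (unadjusted p = 0.0313, edgeR's quasi-likelihood test), where 2.12% of 17425 genes had an adjusted p under 0.05. The fitted log2 ratio was -2.43, and it was -1.92 without crushed nerve 2 (adjusted p = 0.649) and -1.97 without crushed nerve 3. Without crushed nerve 1 the crushed side was at 0, and the fitted value of -5.06 (adjusted p = 0.274) then depends on the prior count and is no bound. The level of Ngfr was 0.0482 ± 0.0136 FPKM (SD, n = 3) on the intact side, and 12.8% of genes with a count had a lower mean FPKM.

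The receptor kinases were at or under the floor in most libraries. Ntrk3, which encodes the neurotrophin 3 receptor TrkC and lies on chromosome 1 from 139890560 to 140262503, had 1, 1 and 2 counts on the intact side and 3, 2 and 4 counts on the crushed side. Ret, the kinase through which GDNF family ligands signal, lies on chromosome 4 from 150202058 to 150244372 and had 0 counts in 5 libraries and 1 count in crushed nerve 1. Gfra1, the preferred coreceptor of GDNF, lies on chromosome 1 from 279207586 to 279277339 and had 0, 1 and 1 counts on the intact side and 0, 3 and 0 on the crushed side. No difference was detectable at this depth for these 3 genes, nor for Ntf3 (chromosome 4, 158636884 to 158705886) and Ntrk2 (chromosome 17, 5933729 to 6244676), and no fold change is given. The order of mean FPKM was Ngfr, Ntrk3, Gfra1 and Ret on the intact side, with Ret at 0, and Ntrk3, Gfra1, Ngfr and Ret on the crushed side. Both orders rest on at most 5 counts per gene and library and do not establish a change of rank. Ngfr lay above the other 3 in every intact library. On the crushed side Ngfr, Gfra1 and Ret overlapped in FPKM, with at least 1 library of each at 0, and Ntrk3 overlapped with Ngfr and Gfra1 and lay above Ret.

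Receptors of both families were also summed over the 9 genes Ngfr, Ntrk2, Ntrk3, Gfra1, Gfra2, Gfra3, Gfra4, Gfral and Ret. Together they held 12, 12 and 14 counts in intact libraries 1, 2 and 3, and 10, 14 and 7 counts in crushed libraries 1, 2 and 3. The groups overlapped. The ligand transcripts were therefore counted in libraries in which these receptors together had at most 14 counts.

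A list of 15 further ligands, receptors and coreceptors was described in the same way, of which 6 passed the filter. Of these 0 were higher and 1 was lower at an adjusted p under 0.05, against 3.12% of all genes tested. The median log2 ratio of the 6 was 0.0087, and that of all genes tested -0.0017. Ncam1, a neural adhesion molecule that also binds GDNF, was the gene that was called. It had 2489, 2429 and 2167 counts on the intact side and 2094, 2068 and 2064 counts on the crushed side, in the order of libraries 1, 2 and 3. Ncam1 fell by 0.24 on the log2 scale (standard error 0.0555, adjusted p = 0.0438, edgeR quasi-likelihood), from 92.6 ± 5.47 to 78.4 ± 3.45 normalized CPM (SD, n = 3 each), without overlap. Of all genes tested, 12.2% likewise lay lower in each crushed nerve than in each intact one. The call was lost in 9 of 13 alternatives, among them those without intact nerve 1 or 2 or any 1 of the crushed nerves, with an adjusted p between 0.00882 and 0.191 over all 13.

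Ntf4, the other TrkB ligand, had 14 to 18 counts on the intact and 17 to 23 counts on the crushed side (log2 ratio 0.31, adjusted p = 0.607, edgeR quasi-likelihood). Pspn, which encodes the GDNF family ligand persephin, had 12 to 22 and 16 to 27 counts (log2 ratio 0.42, adjusted p = 0.557), and Nrtn, which encodes neurturin, had 0 counts. Both groups overlapped for Ntf4 and Pspn.

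Among the sorting receptors Sort1 and Sorcs1 passed the filter and Sorcs2 and Sorcs3 did not. Sort1, which encodes sortilin, a partner of p75NTR in binding proneurotrophins, had 11.7 ± 0.640 FPKM on the intact and 11.8 ± 0.504 FPKM on the crushed side (SD, n = 3 each). Its log2 ratio was -0.0059, with a 95% interval of -0.13 to 0.12. Sorcs1, a sortilin relative whose locus overlaps a copy of 7SK in the table, had a log2 ratio of 0.023, with a 95% interval of -0.25 to 0.29. Sorcs2 had between 3 and 11 counts per library, and Sorcs3 had 0. Gdf15, a stress-induced relative of the TGF-β family that signals through GFRAL and RET, had 63 to 72 counts on the intact and 63 to 77 counts on the crushed side, with a log2 ratio of -0.014 (95% interval -0.34 to 0.31), whereas its receptor gene Gfral was at 0. Of the other GFRα coreceptor genes, Gfra4 had 1 to 9 counts per library, and Gfra2 and Gfra3 at most 2. The GDNF-binding syndecan Sdc3 had at most 1 count, and Gas1, which encodes a relative of the GFRα proteins, had 0.

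**Figure D4:**
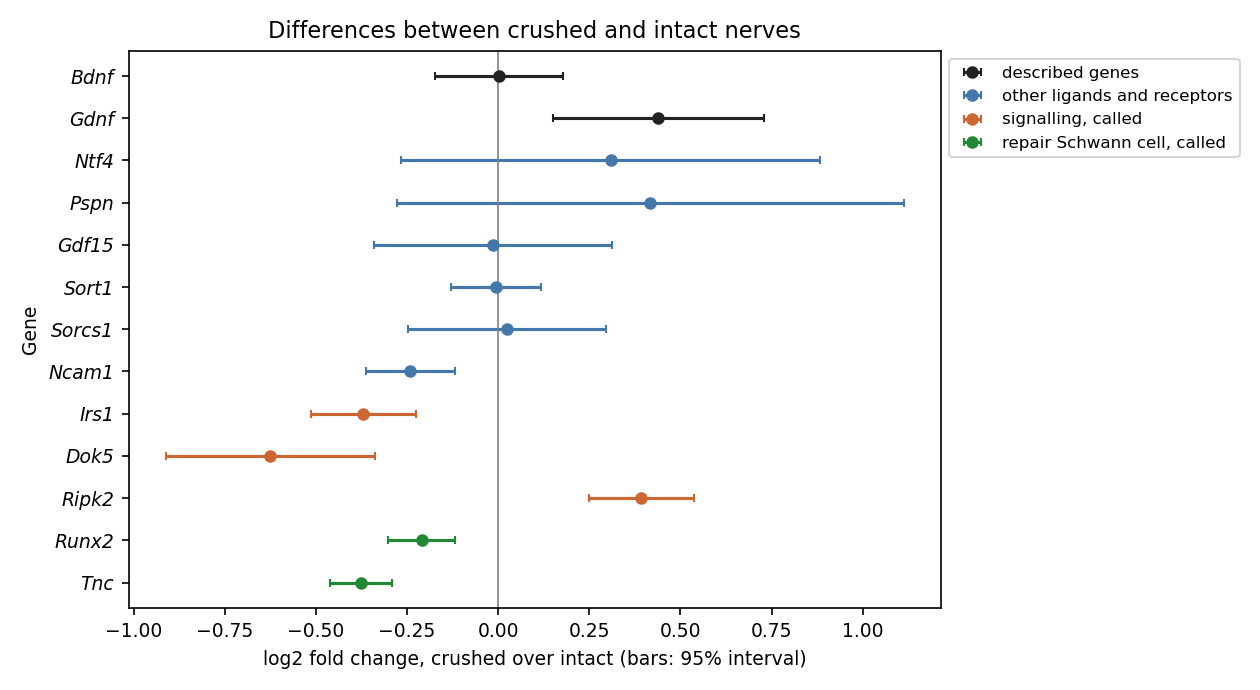
Log2 ratios, crushed over intact, with 95% intervals from edgeR's quasi-likelihood test, for the tested ligands, receptors and coreceptors, and for the genes of the signalling and repair Schwann cell lists with an adjusted p under 0.05. Gdnf lies at 0.44 and Bdnf at 0.0033, and Ncam1, Irs1, Dok5, Runx2 and Tnc lie below 0.

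Genes that act downstream of the receptors or that process their ligands were mostly detected. Of the 49 genes of that list, 40 passed the filter, 1 was higher and 2 were lower at an adjusted p under 0.05, and 37 were not called, against 1.47% higher and 1.65% lower over all genes tested. Their median log2 ratio was 0.0053. Ripk2, a kinase that binds p75NTR and the NOD receptors, had 757, 912 and 802 counts on the intact side and 1127, 1189 and 1054 counts on the crushed side. It rose 1.31-fold (log2 ratio 0.39, standard error 0.0652, adjusted p = 0.00831, edgeR quasi-likelihood), and without crushed nerve 2 the adjusted p was 0.0563. Dok5, an adaptor that binds RET and TrkC, had 151, 158 and 143 counts on the intact side and 108, 88 and 108 on the crushed side. Dok5 fell by 0.63 on the log2 scale (standard error 0.130, adjusted p = 0.0274), and this call was lost without any 1 of the nerves except crushed nerve 3. Irs1, an insulin receptor substrate, had 1003 to 1192 counts on the intact and 843 to 926 counts on the crushed side and fell by 0.37 (adjusted p = 0.0113), with an adjusted p between 0.0502 and 0.0628 without each of the crushed nerves in turn. Without crushed nerve 2 the list had 0 calls, and without crushed nerve 1 it had 1.

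Repair Schwann cells, the form that Schwann cells take after injury, are known to express a set of transcription factors and trophic genes, and 20 of these were listed. Shh, Olig1, Gap43 and Fgf5 had 0 counts in all libraries, and 13 genes passed the filter. Of the 13, 0 were higher and 2 were lower at an adjusted p under 0.05, against 1.47% and 1.65% of all genes tested. The median log2 ratio was -0.11, and that of all genes tested -0.0017. Tnc, which encodes the matrix protein tenascin-C, had 12434 to 13559 counts on the intact and 9615 to 10951 counts on the crushed side and fell by 0.38 on the log2 scale (adjusted p = 0.000319, edgeR quasi-likelihood). Runx2, a transcription factor, fell by 0.21 (adjusted p = 0.0222), a call that was lost without intact nerve 2 or 3 or crushed nerve 1 or 2. Jun, the transcription factor known to drive Gdnf, Artn and Ngfr in repair cells, had 3283 to 4102 counts on the intact and 3148 to 3592 counts on the crushed side (log2 ratio -0.21, adjusted p = 0.150). Among the neurotrophic cytokines, Cntf had a log2 ratio of 0.28 (adjusted p = 0.398) and Lif of 0.081 (adjusted p = 0.836).

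Among the other genes tested, those whose log2 normalized CPM followed Gdnf most closely over the 6 libraries were Fntb (Pearson r = 0.990), Rsrp1 (r = 0.984) and Evi2a (r = 0.984). In all, 184 genes had an r above 0.9 with Gdnf. These values share libraries, depth and the split into crushed and intact nerves and are given as a description. The log2 ratios of Fntb, Rsrp1 and Evi2a were 0.13, 0.095 and 0.34, none with an adjusted p under 0.05.

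Markers of other cells were read beside these differences. Of the 3 tested fibroblast markers Col1a1 and Col3a1 were lower on the crushed side at an adjusted p under 0.05. So were Pdgfrb and Cspg4 of the 3 tested mural markers, and Erbb3 of the 6 tested Schwann cell markers. Over all genes tested, 1.65% were lower at that threshold. Col3a1 had 21 to 23 counts on the intact and 3 to 10 on the crushed side. None of the 3 tested endothelial markers was called, with log2 ratios of -0.66 for Tek, 0.42 for Kdr and 0.49 for Vwf. The third fibroblast marker, Pdgfra, had 46.6 ± 3.33 normalized CPM on the intact side and 53.3 ± 2.78 on the crushed side (SD, n = 3 each; log2 ratio 0.19, adjusted p = 0.166) and made up most of the fibroblast sum. Summed over the 5 mural markers, the level was 194 to 211 normalized CPM on the intact and 156 to 159 on the crushed side. Cspg4 alone made up most of this sum, with 173 to 188 on the intact and 142 to 143 on the crushed side. Acta2 had at most 3 counts per library and Rgs5 was at 0. Summed over the 6 fibroblast markers it was 64.4 to 71.6 in intact and 62.7 to 69.5 on the crushed side. The part of these cells in the values of Ncam1, Tnc, Dok5 and Gdnf was not tested. Of the 7 neuron and axon markers Nefh passed the filter and was not called (log2 ratio 0.25, adjusted p = 0.165), with Nefm, Rbfox3 and Syp at 0. None of the 5 cycling cell markers and neither of the 2 tested macrophage markers was called, and the macrophage list summed to 1.78 to 3.07 normalized CPM in intact and 2.12 to 3.07 on the crushed side.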

How the data were processed

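RNA-seq of 3 crushed and 3 intact nerves was analysed from 1 deposited table. The authors deposited raw read counts per Ensembl gene and, in the same table, FPKM values. These equal the counts divided by the library total and by a length per gene. That length varied by at most 0.00247% between libraries among genes with high counts. It was checked for those genes only, and of the 9 genes Bdnf alone was among them. The submitters' processing notes name HISAT2, StringTie 1.3.0 and the build Rnor_6.0. The counting rule and strand setting are not given in the sources used here. The table had 0 other columns of values, and no row of the 9 genes overlaps another gene of the table.

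Counts were normalized with TMM, filtered with filterByExpr (12393 of 30957 genes kept) and tested by quasi-likelihood in edgeR 4.0.16 under R 4.3.3, without a replicate block (limma was version 3.58.1). Genes under the filter were taken from the same fit on the 17425 genes with at least 1 count. Alternatives were DESeq2 1.42.0, RLE factors, no filter, the replicate block, limma on log2(FPKM + 0.1) or log2(FPKM + 1), edgeR's exact test and each nerve left out. Pairs of replicates had a chi-square per degree of freedom of 3.39 to 12.4, above sampling noise. Nothing in the labels says whether nerves of 1 number came from the same rat, so p-values measure the spread between these samples. The fit was tested on simulated data with larger changes than those of Gdnf and Ncam1, so changes of their size were not covered.

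The genes and lists were chosen with earlier results of these data known. Named are the 9 genes, all other listed ligands and receptors, the called genes of the other lists and the 3 genes most like Gdnf. Cntf, Lif and Jun were named after their values were seen. Of the listed genes Bex1, Pecam1 and Myh4 were not analysed here, and 2 rows of the table carry the name Grb2. These lists leave out some ligands, receptors and markers, which are not reported here.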

Additional observations from a re-analysis of the deposited data

How the results depend on the processing

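Neither the 0 calls among the 9 genes nor the direction of Gdnf depended on the normalization, the filter or the library left out. The log2 ratio of Gdnf lay between 0.36 and 0.52 across the fits that left out 1 nerve each, with adjusted p-values of 0.0892 to 0.359, and edgeR's exact test (log2 ratio 0.44) raised the number of calls among the 9 genes to 1. Bdnf lay between -0.061 and 0.058 in those fits and was below 0 without intact nerve 1 or crushed nerve 3. The further ligands and receptors went from 1 call to 0 with the replicate block, with limma on log2(FPKM + 0.1) or log2(FPKM + 1) and without the filter, and to between 0 and 1 with 1 nerve left out. Across the nerves left out, calls ranged from 0 to 3 in the signalling list and from 1 to 2 in the repair Schwann cell list, which also had 1 with either limma fit. Calls over all genes, 387, became 242 (156 higher) and 256 (162 higher) with limma on log2(FPKM + 0.1) and log2(FPKM + 1), 626 (270 higher) with the exact test and 177 to 400 with 1 nerve left out. They were 253 without intact nerve 2, 177 without crushed nerve 1, 185 without crushed nerve 2 and 204 without crushed nerve 3. Under the limits of the methods, 14 genes were called with limma on log2(FPKM + 1) in place of 35, and 27 to 34 with 1 nerve left out. Genes close to 0 changed sign. Gdf15 was 0.00059 and 0.00072 and Sort1 0.012 and 0.011 with the 2 limma fits. With 1 nerve left out, Gdf15 lay between -0.082 and 0.027, Sort1 between -0.048 and 0.037, Sorcs1 between -0.049 and 0.076 and Sorcs2 between -0.36 and 0.46. For all of these shifts, the cause was not tested.

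Fitting the replicate number as a block, a paired analysis, called 300 genes. In it, the 9 genes had 0 calls, Ripk2, Irs1, Tnc and Runx2 remained called, and Ncam1 (log2 ratio -0.24, adjusted p = 0.0865) and Dok5 (-0.63, adjusted p = 0.0535) were no longer called. Same-numbered nerves shared little more than their number, with correlations of their deviations between -0.0148 and 0.0756, and 1 of 3 crushed nerves correlated best with its own number. Each of the receptors among the 9 genes had at most 5 counts in any library, and the cause of these low counts was not tested.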

Other observations

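Within each library the ratio of Gdnf to Bdnf in FPKM was 1.31, 1.05 and 0.904 in intact libraries 1, 2 and 3, and 1.57, 1.62 and 1.21 in crushed libraries 1, 2 and 3. The groups overlapped, because crushed nerve 3 lay below intact nerve 1. The injury-response gene Atf3, a transcription factor of the stress response, had 168, 159 and 183 counts on the intact side and 198, 46 and 33 counts on the crushed side, in the order of libraries 1, 2 and 3, so that crushed nerve 1 lay with the intact nerves. Its log2 ratio was -0.95 (standard error 0.454, adjusted p = 0.341, edgeR quasi-likelihood). Atf3 was singled out after its values were seen.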
